A study of Mus musculus with 16 samples.

Results

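Cells carrying transcripts of both the T cell receptor complex and the Cd8 co-receptor were a rare population of the sorted lymph node: 350 of the 50386 cells kept from 16 libraries, or 0.695%. A cell was chosen when it had 200 to 6000 detected genes, at most 30% mitochondrial UMIs (unique molecular identifiers, 1 for each captured transcript), at least 1 UMI of Cd3d, Cd3e or Cd3g, at least 1 UMI of Cd8a or Cd8b1, and no UMI of Cd4, of the B cell genes Cd79a and Ms4a1, or of the stromal genes Prox1 and Pdgfrb. The Cd3+ Cd8+ cells were thus selected on the measured UMIs of these genes, which are not results about them. All mice were 8-week-old C57Bl/6 animals. MC38, a mouse colon carcinoma line, was injected under the skin of the lower right flank at 500000 cells, either live or after fixation in paraformaldehyde. On day 12 the inguinal node draining the injection site (dLN) and the contralateral non-draining node (ndLN) were digested, and PDPN-positive cells, mainly stroma, were enriched before 10x Genomics 3' sequencing. Both nodes of mice given live cells (live draining, live non-draining) and of mice given fixed cells (fixed draining, fixed non-draining) gave 3 libraries each, A to C, and naive nodes from mice without an inoculum gave 4, A to D. The labels do not say which libraries came from the same mouse, so the p-values measure the spread between libraries.

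CD8 T cells recognise peptides on MHC class I molecules through a T cell receptor that signals through the CD3 chains, with CD8 binding the MHC molecule. Those that have not met antigen recirculate through lymph nodes, drawn in through CCR7 and kept quiescent by factors such as LEF1 and TCF1 (Tcf7). After priming by dendritic cells they can turn on killer proteins (granzymes, perforin), Ifng and Ccl5. One kind of dendritic cell also makes CD8 alpha, so a Cd8a transcript alone does not mark a T cell. The cells described here passed a selection for a stromal surface protein, so they are the lymphocytes that came through it, free or attached to other cells, and their number is not the number in the node.

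The 16 libraries held between 7486725 and 48945961 UMIs. The live draining libraries held the most UMIs in total, at 38617010 or more. The fixed non-draining libraries held 7486725 to 13613641, a range that overlapped that of the live non-draining ones, from 11732665. Per kept cell the live draining libraries were not the deepest. The median UMIs of a kept cell, averaged over libraries, were 4131 in live draining, 3648 in live non-draining, 4810 in fixed draining, 4121 in fixed non-draining and 4145 in naive. Cell barcodes shared by a pair of libraries numbered 0 to 15, at most 0.393% of the smaller library. The largest library contributed 43 Cd3+ Cd8+ cells, and live draining B and C contributed 7 and 5.

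The T cell genes outside the rule were present in most of the 350 cells but did not make them 1 kind of cell. A UMI of a T cell receptor constant region was found in 282 of 350 (80.6%), and Lck, the kinase that starts receptor signalling, in 66.2% to 94.6% of the 3 kinds of cell described next, against 18.0% of 2969 B cells. The rule rested on few molecules: 155 cells had 1 Cd3 UMI, 147 had 1 Cd8 UMI, and 76 had 1 of each. Applied to B cells with its B cell and stromal clauses dropped, the rule passed 9 of 2969 (0.303%). Applied to stromal cells with its stromal clause dropped, it passed 17 of 19684 (0.0864%). These values give the level at which free RNA or attached cells met the rule in B cells and stromal cells, not in other cells. Of the 350 cells, 124 had at least 2 Cd3 and 2 Cd8 UMIs.

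The cells did not all carry the markers that the name CD8 T cells implies alone. Of 12 dendritic cell markers (Itgax, Flt3, Xcr1, Clec9a, Cd209a, Fscn1, Ccl22, Siglech, H2-Ab1, H2-Aa, Cd74 and Batf3), 145 cells (41.4%) carried 3 or more, with a median of 6. A further 37 cells (10.6%) carried fewer than 3 of these and at least 2 of 12 markers of gamma-delta and natural killer T cells. The remaining 168 cells (48%) carried neither set. Both limits were set after the values were seen, so the 3 kinds are descriptions and no test was made between them.

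**Figure D1:**
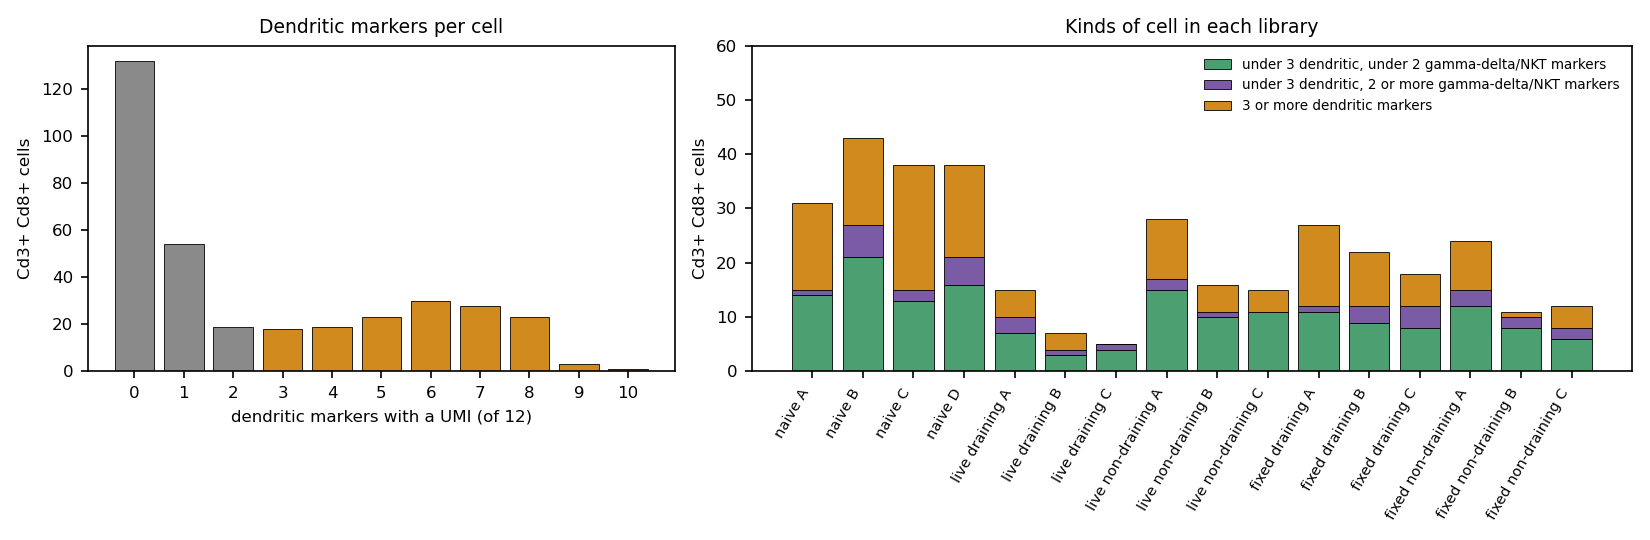
Left, number of the 12 dendritic markers with a UMI in each of the 350 Cd3+ Cd8+ cells (x axis) against the number of cells (y axis), with cells of 3 or more markers in orange and others in grey; right, cells of each kind stacked for each of the 16 libraries. The left panel has 1 peak at 0 markers (132 cells) and another at 6 (30 cells), and in the right panel the bars of live draining B and C reach 7 and 5 cells.

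The cells with dendritic markers carried T cell transcripts beside the markers that chose them, whose values are a description. Cd74, the MHC class II chaperone, was found in 94.5% of them, Fscn1, an actin-bundling protein of mature dendritic cells, in 69.7%, and the chemokine Ccl22 in 60.0%. In the remaining cells these shares were 16.1%, 4.8% and 1.8%. Xcr1, a receptor of the CD8 alpha dendritic cell, was in 11.7%. Of the 145 cells, 111 (76.6%) had a T cell receptor constant UMI, and 95 had one together with at least 2 of the 9 markers other than Cd74, H2-Aa and H2-Ab1. Lef1 was in 45.5% of them and Ms4a4b, a membrane protein of T cells, in 64.1%. Their median depth was 8896 UMIs, against 1713 in the remaining cells. No doublet caller was run on these libraries, and whether such a barcode held 1 cell or a T cell attached to a dendritic cell was not tested. Cells with 3 or more dendritic markers were common in the sort, at 11123 of 50386, and 145 of them (1.30%) met the rule. The same markers were found in 519 of the 1651 T cells without Cd8 transcripts (31.4%).

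The cells with gamma-delta and natural killer T cell markers were T cells by every measure but carried little Cd8. Their median was 22 Cd3 UMIs and 1 Cd8 UMI, all 37 had a T cell receptor constant UMI, and 35 of 37 had Cd8b1 without Cd8a. The genes for the 2 chains are neighbours on chromosome 6 of mm10 (GRCm38), Cd8b1 at 71322788 to 71337494 and Cd8a at 71373427 to 71379173. Il7r, the interleukin 7 receptor, and the genes Maf, Cxcr6 and Il18r1 were found in 100% of them. Ccr6, a chemokine receptor, was in 94.6%, against 2.4% of the remaining cells, and Cd44 in 91.9%. Zbtb16, a factor of innate-like T cells, was in 73.0% and the gamma chain constant gene Tcrg-C1 in 78.4%, while the delta chain constant gene Trdc was in 0 of 37. Several of these markers chose the cells and are given only as a description.

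The remaining 168 cells carried genes of resting T cells. Of these cells 134 (79.8%) had a T cell receptor constant UMI, and 91 had 1 Cd3 UMI. Their median mitochondrial share was 10.4%, against 5.13% in cells with dendritic markers and 2.88% in those with gamma-delta and natural killer T cell markers. The remaining cells had Lck in 81.0%, Ms4a4b in 78.6%, Satb1 (a chromatin organiser of T cells) in 72.6%, Lef1 in 54.8%, Tcf7 in 45.8%, Themis in 42.9% and Ccr7 in 32.1%. Their median depth was 1713 UMIs. In the 1651 T cells without Cd8 transcripts, which were deeper at a median of 3966 UMIs, Ms4a4b was in 30.6%, Lef1 in 18.8% and Themis in 15.6%. Unlike the remaining cells, this set kept its 519 cells with dendritic markers (31.4%) and any with gamma-delta and natural killer T cell markers. The part of these cells in the differences given here was not tested. Dapl1, a gene known from resting CD8 T cells, was found in 22.6% of the remaining cells, in 3.1% of the T cells without Cd8 transcripts, in 0 of 221 natural killer cells and in 0.4% of B cells. Summed over cells, Dapl1 stood at 602 CPM (UMIs of the gene scaled to a common total of the summed cells) in the remaining cells and at 9.98 CPM in T cells without Cd8 transcripts. Cd44, which rises on antigen experience, went the other way, at 18.5% against 56.8%.

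Few UMIs of killer genes were detected. Gzmk, Ifng and the terminal effector receptor Klrg1 had no UMI in any of the 350 cells, and a count of 0 in 350 allows a share of cells with a UMI of up to 0.857%, which does not limit the share of cells that express the gene at this depth. Gzma had 13 UMIs in 3 cells, of which 11 were in 1 cell of live draining A, and Gzmb had 4 UMIs in 3 cells. In the 221 natural killer cells of the same libraries Gzma was found in 43.0% and Ifng in 16.3%, so the libraries did hold these transcripts. Prf1, the gene for perforin, was in 2.4% of the remaining cells against 21.3% of natural killer cells. The receptor Pdcd1 was in 1.8% of the remaining cells and the proliferation gene Mki67 in 6.5%. Nkg7, a granule protein, was in 27.4% of the remaining cells and 0.539% of B cells, and Eomes, a factor of memory and effector cells, in 10.1% and 0.269%. Cxcr3 and Tbx21 were as frequent in B cells (5.52% and 4.72%) as in the remaining cells (5.36% and 4.17%). The B cells were deeper, at a median of 3359 UMIs against 1713, and these shares were not corrected for depth. The Cxcr3 and Tbx21 shares are not read as expression by CD8 T cells, and a difference at equal depth was not tested.

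**Figure D2:**
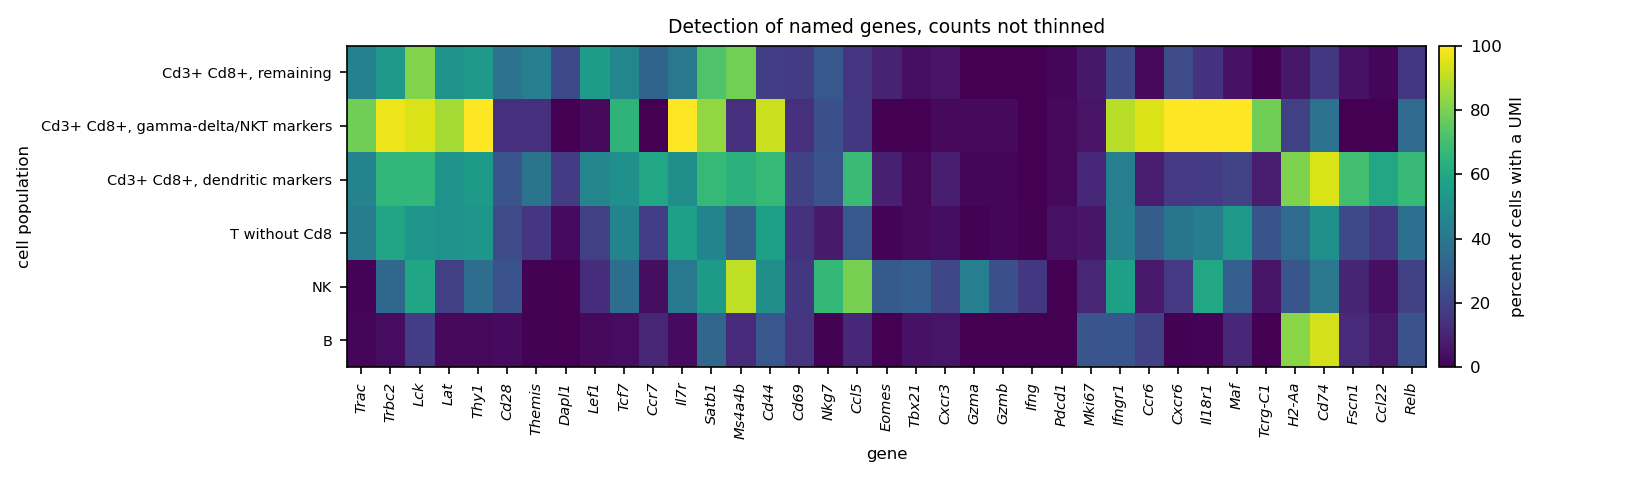
Heat map of the percentage of cells with at least 1 UMI of each of 37 genes (x axis) in 6 populations (y axis): the 3 kinds of Cd3+ Cd8+ cell, T cells without Cd8 transcripts, natural killer cells and B cells, not corrected for depth. Lef1, Ms4a4b and Dapl1 are high in the remaining cells (54.8%, 78.6% and 22.6%), Ccr6 and Il7r in the cells with gamma-delta and natural killer T cell markers (94.6% and 100%), and Ccl22 and Cd74 in the cells with dendritic markers (60.0% and 94.5%).

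Cd3+ Cd8+ cells made up a smaller share of the kept cells in the draining than in the non-draining node after live MC38. Their share was 0.292%, 0.144% and 0.134% in live draining A, B and C, and 0.769%, 0.931% and 0.759% in live non-draining A, B and C. The means were 0.190% ± 0.0884 (SD, n = 3) and 0.820% ± 0.0969 (SD, n = 3), 4.31-fold lower in the dLN, and the groups did not overlap. A 2-sided exact permutation test gave p = 0.1, the smallest value that 3 libraries against 3 allow. After fixed cells the share was also lower in the draining node, at 0.680%, 0.654% and 0.538% against 1.34%, 0.890% and 1.13%. The means were 0.624% ± 0.0756 (SD, n = 3) and 1.12% ± 0.227 (SD, n = 3), 1.80-fold lower and without overlap (exact permutation test, p = 0.1). With at most 10% mitochondrial UMIs the fixed groups overlapped, at 0.651% against 0.936% (exact permutation test, p = 0.4). Naive nodes held 0.645%, 1.33%, 1.13% and 1.20%, a mean of 1.08% ± 0.298 (SD, n = 4), and the live draining libraries were below all 4 (exact permutation test, p = 0.0571). The comparison with naive nodes was added after the values were seen. Leaving out the cells with dendritic markers gave 0.137% against 0.554% after live and 0.339% against 0.800% after fixed cells, and asking for 2 UMIs each of Cd3 and Cd8 gave 0.0796% against 0.308% and 0.247% against 0.407%, where the fixed groups overlapped. Under that stricter rule live draining and naive libraries also overlapped, with means of 0.0796% and 0.336% (exact permutation test, p = 0.0857). These are shares of cells that passed a PDPN selection, and a smaller share of Cd8 cells cannot be told apart from a larger share of other selected cells. All 3 live draining shares were numerically below the 0.303% of B cells that met the rule, and above the 0.0864% of stromal cells. Those backgrounds are shares of B cells and of stromal cells with a clause of the rule dropped, not of kept cells. The full rule leaves such cells out, so the backgrounds are not a floor for the share of kept cells. The part of free RNA or attached cells in the live draining shares was not tested.

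T cells without Cd8 transcripts followed the same direction after live but not after fixed cells. They made up 2.10%, 1.96% and 1.69% of kept cells in the live draining libraries and 4.45%, 4.48% and 4.65% in the live non-draining ones, with no overlap. In the fixed draining libraries they made up 3.07%, 3.30% and 2.63%, and in the fixed non-draining ones 2.52%, 2.35% and 2.25%, the opposite order and again with no overlap (exact permutation test, p = 0.1 for each). Of these T cells and the Cd3+ Cd8+ cells together, the Cd8 cells were 8.80% against 15.3% after live and 17.2% against 31.9% after fixed cells, lower in the dLN both times.

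Counted against Cd4 T cells of the same library, which met the same selection, the Cd8 share was lower in the live draining node. Of cells with Cd8 or Cd4 but not both, the Cd8 share was 40.5%, 23.3% and 31.2% in live draining A to C and 50.0%, 42.1% and 42.9% in live non-draining A to C, a difference of means of -13.3 percentage points with no overlap (exact permutation test, p = 0.1). The live draining share rested on 27 Cd8 and 56 Cd4 cells. In the fixed draining libraries it was 56.2%, 51.2% and 51.4%, and in the fixed non-draining ones 75%, 50.0% and 75%, which overlapped (exact permutation test, p = 0.4). In naive nodes it was 48.4%, 60.6%, 59.4% and 65.5%, above every live draining library (exact permutation test, p = 0.0286, the smallest that 3 against 4 allow). When each cell was thinned to 1000 UMIs before the rule was applied, the live means were 31.9% and 55.7%. The live groups then overlapped (exact permutation test, p = 0.4). With at most 10% mitochondrial UMIs they were 25.5% and 40.7% and also overlapped (exact permutation test, p = 0.2). Thinned live draining and naive libraries overlapped too, with means of 31.9% and 63.6% (exact permutation test, p = 0.114). With at most 10% mitochondrial UMIs these 2 groups, at 25.5% and 54.7%, did not (exact permutation test, p = 0.0286).

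**Figure D3:**
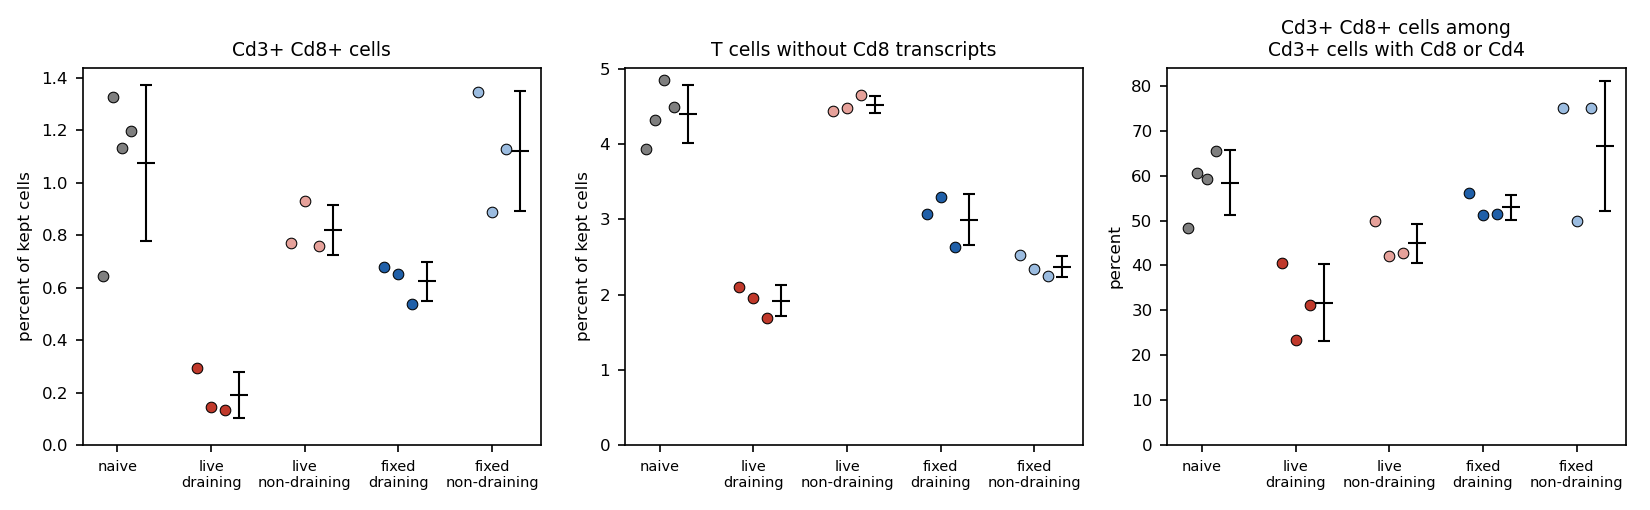
Points are libraries, bars are means ± SD, and the 5 groups stand along each x axis; the y axes give Cd3+ Cd8+ cells as a percentage of kept cells, T cells without Cd8 transcripts as a percentage of kept cells, and Cd3+ Cd8+ cells as a percentage of T cells with Cd8 or Cd4. The live draining libraries are the lowest of all groups in the first panel (0.134% to 0.292%) and have the lowest mean in the third (31.7%).

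Ccl5, a chemokine of antigen-experienced CD8 T cells and of some dendritic cells, followed the cells with dendritic markers. It was found in 68.3% of them at 6238 CPM, in 14.9% of the remaining cells at 153 CPM and in 11% of B cells at 159 CPM. Of its 9763 UMIs in the 350 cells, 9687 were in the cells with dendritic markers. Its level in 1 library was therefore uneven: live draining A to C held 6, 262 and 0 UMIs, and fixed non-draining A to C held 60, 2 and 920. With each cell thinned to 1000 UMIs and 38 shallower cells left out, 81 of 312 cells (26%) had Ccl5, against 5.10% of B cells. By library the share was 18.2%, 14.3% and 0% in live draining A to C, which rest on 11, 7 and 3 cells, and 26.9%, 14.3% and 36.4% in live non-draining A to C (exact permutation test, p = 0.3). It was 34.6%, 26.3% and 22.2% in fixed draining A to C and 21.7%, 9.09% and 11.1% in fixed non-draining A to C, with no overlap (exact permutation test, p = 0.1). The fixed groups overlapped at 10% mitochondrial UMIs (27.9% against 12.7%, exact permutation test, p = 0.3) and without thinning (40.2% against 16.9%, exact permutation test, p = 0.2). Naive libraries held 25.7% to 34.4%. Thinned B cells of the same groups moved alike, with mean shares of 2.15% in live draining, 4.41% in live non-draining, 8.49% in fixed draining, 2.00% in fixed non-draining and 9.92% in naive nodes, and their part in the result was not tested. Without the cells with dendritic markers, 14 of 167 thinned cells (8.38%) had Ccl5 and the fixed means were 7.41% in the draining and 10.5% in the non-draining node, the reverse order.

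**Figure D4:**
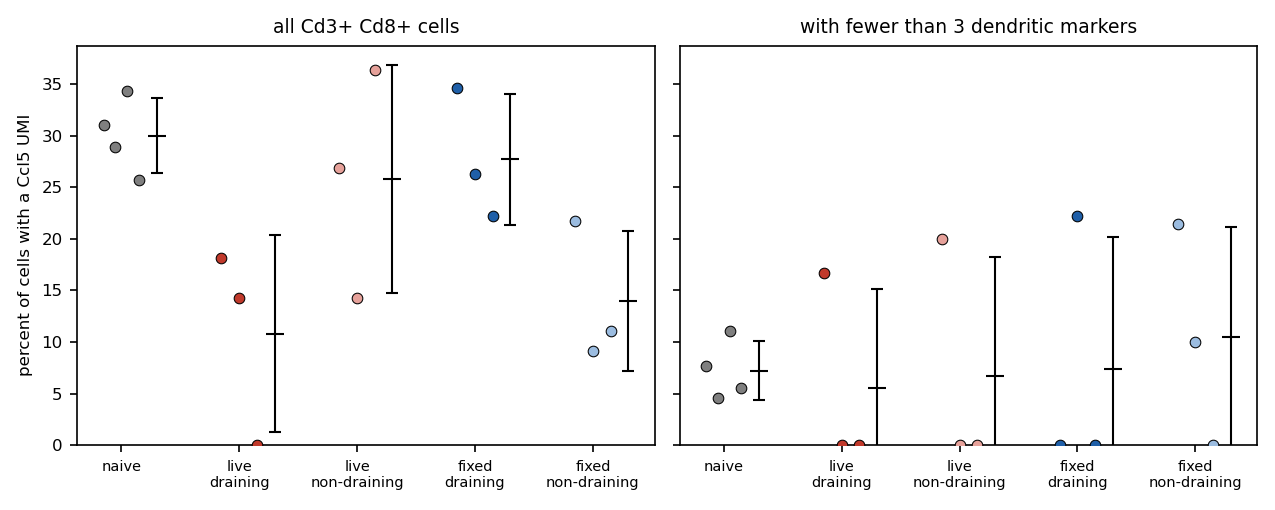
Percentage of cells with a Ccl5 UMI after thinning each cell to 1000 UMIs (y axis) by group (x axis), for all Cd3+ Cd8+ cells and for those with fewer than 3 dendritic markers; points are libraries and bars are means ± SD. Fixed draining lies above fixed non-draining for all cells (means 27.7% and 14%) but not among cells with few dendritic markers (7.41% and 10.5%).

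Genes were compared on UMIs summed over the Cd3+ Cd8+ cells of each library with at least 10 such cells, by edgeR's quasi-likelihood test with Benjamini-Hochberg adjustment over 5073 genes, calling an adjusted p under 0.05. Live draining B and C fell short, so 14 libraries entered and every live draining value in this fit is that of 1 library of 15 cells (5 with dendritic markers, 3 with gamma-delta and natural killer T cell markers and 7 remaining), assumed to vary like the other groups. The makeup of the summed cells differed between libraries: the cells with dendritic markers held 56.2%, 66.8% and 0% of the UMIs in live draining A to C, 51.1% to 61.6% in live non-draining, 44.8% to 79.7% in fixed draining, 31.8% to 58.1% in fixed non-draining and 65.9% to 88.1% in naive libraries. All 12 dendritic markers were detected over the 350 cells. Their summed level was 2229, 30004 and 136 CPM in live draining A to C, against 8565 to 10234 CPM in live non-draining libraries. The summed level of 12 macrophage and monocyte markers was 2416, 619 and 90.6 CPM in live draining A to C. It was 331 to 657 CPM in live non-draining, 209 to 564 CPM in fixed draining, 382 to 1299 CPM in fixed non-draining and 192 to 959.5 CPM in naive libraries. The part of either marker list in the gene comparisons was not tested.

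In the live draining node, 11 genes were higher (0.217% of those tested) and 2 lower (0.0394%) than in the live non-draining node. These 13 were 0.256% of the genes tested, and 719 genes had an unadjusted p under 0.05. The genes with the smallest p were Gpx1, a glutathione peroxidase, and Lgals3, galectin 3. Gpx1 stood at 1290, 720 and 408 CPM in live draining A to C and at 334, 216 and 295 CPM in live non-draining A to C. Gpx1 rose by 2.22 ± 0.33 (log2, SE), and the 2 libraries outside the fit were also above all 3 non-draining ones. However, 1 cell held 25 of 43 Gpx1 UMIs in live draining B and 1 cell held 5 of 9 in live draining C. Lgals3 stood at 964, 251 and 226 CPM against 143, 12.7 and 215 CPM, a rise of 2.99 ± 0.46 (log2, SE, edgeR adjusted p = 0.001396). Ly6a, a surface antigen of memory T cells and other cells, rose by 3.77 ± 0.69 (log2, SE, edgeR adjusted p = 0.01127), but its 35 UMIs were all in live draining A and live draining B and C had 0. The others that rose were Smox (4.70), Zfp36 (3.05), Amica1 (3.04), Lmo4 (2.47), Sepp1 (2.43), Capg (2.39), Apoe (2.16) and S100a10 (1.90), all as log2 changes. Outside the fit, live draining B had 0 UMIs of Zfp36, and live draining C had 0 of Smox and Apoe. Sepp1, Capg and Lmo4 stood at 66.9, 134 and 117 CPM in live draining B, not above all 3 non-draining libraries. In live draining C they stood at 317, 770 and 362 CPM, above all 3. Amica1 was above all 3 in both, at 83.7 and 181 CPM. Arhgap31 fell by 3.54 on the log2 scale, with 37.6 CPM in live draining A against 608, 267 and 483 CPM, but live draining B had 368 CPM. Cbfa2t3 had 0 UMIs in live draining A and C, 21 in live draining B, and 178 to 286 CPM in live non-draining libraries.

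Of the genes that rose, the 7 remaining cells of live draining A held 0 UMIs of Smox, Ly6a, Amica1, Lgals3, Lmo4 and Capg. They held 1 to 6 UMIs of Sepp1, Zfp36, Gpx1, S100a10 and Apoe. These 7 cells held 10604 of the library's 79870 UMIs, against 44853 in the 5 cells with dendritic markers. Few UMIs of any gene can therefore fall in them, and these low counts do not show that the genes were absent. Of 77 Lgals3 UMIs in live draining A, 56 were in the 5 cells with dendritic markers, 21 in the 3 with gamma-delta and natural killer T cell markers and 0 in the 7 remaining cells. Of 103 Gpx1 UMIs, 91, 8 and 4 were in these kinds, and 1 cell held 57 of them (55.3%). In live draining B 1 cell held 8 of 15 Lgals3 UMIs, and in live draining C 1 cell held all 5. The values that follow are again of live draining A. Of 64 Capg UMIs the remaining cells held 0, and of 32 Zfp36 UMIs 1 cell held 24 (75%). Others were spread more widely: Apoe (33 UMIs) and S100a10 (100 UMIs) were each found in 10 of the 15 cells, with 27.3% and 34.0% in 1 cell. With libraries of at least 5 cells, so that all 16 entered, 0 of 2868 genes were called (497 at an unadjusted p under 0.05), and with the cells with dendritic markers left out 0 of 1249 were called (104 at an unadjusted p under 0.05). In that 16-library fit Gpx1 was at 1.60 ± 0.33 (log2, SE, edgeR adjusted p = 0.07265).

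The lists of T cell genes gave almost no calls between the live nodes. Of 18 tested genes of resting T cells, none passed: Foxp1, a quiescence factor, was at -2.04 ± 0.49 (edgeR adjusted p = 0.05594) and Il7r at 2.08 ± 0.53 (edgeR adjusted p = 0.08946), with a list median of -0.57 beside -0.11 over all genes, in log2. Il7r read 1227, 318 and 317 CPM in live draining A to C and 298, 509 and 93.9 CPM in live non-draining A to C, which overlap. Lef1 (-0.63), Tcf7 (0.15), Ccr7 (-2.48), Cd44 (-0.48), Cd69 (-1.28), Mki67 (-0.11), Nkg7 (0.70) and Ifngr1 (0.74), all log2 differences, did not pass in this or any other comparison. Of 15 memory genes only Ly6a rose, and of 11 cytotoxic genes and 18 activation genes none passed, with medians of -1.50 and -1.17. None of 37 type I interferon response genes, 24 interferon gamma response genes or 27 receptor signalling genes passed. The 80 ribosomal protein genes all lay above 0, with a median of 0.58 and 0 called, and 44 of 47 oxidative phosphorylation genes lay above 0, with a median of 0.81 and 0 called. Marker lists moved in the same table: of 11 tested dendritic markers 10 were below 0 and none above, with a median of -1.73, and the 7 tested gamma-delta and natural killer T cell markers had a median of 2.07, with 0 called in each. Over all 5073 genes the median between the live nodes was -0.11, with fewer genes above 0 than below. The part of the marker lists in the other values was not tested.

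In the fixed draining node 8 genes rose and none fell against the fixed non-draining node, 0.158% of those tested, with 487 at an unadjusted p under 0.05. Crip1, Actg1 and Lsp1 belong to the list of actin, S100 and annexin genes. Crip1, a small LIM protein, stood at 5227, 3079 and 4724 CPM in fixed draining A to C and at 1563, 688 and 780 CPM in fixed non-draining A to C, with no overlap, and rose by 2.11 ± 0.29 (log2, SE, edgeR adjusted p = 0.003119). Actg1, cytoplasmic actin, rose by 1.28 ± 0.22 (edgeR adjusted p = 0.007959), from 1524, 918 and 1478 CPM to 3327, 2148 and 3903 CPM. Lsp1, a leukocyte actin-binding protein, rose by 1.11 ± 0.23 (edgeR adjusted p = 0.03457). The rest were Eno3 (2.69), Adcy6 (2.52), Cacnb3 (2.32), 2200002D01Rik (4.88) and Rab9, which had 24, 6 and 13 UMIs in the fixed draining and 0 in all fixed non-draining libraries. All 8 had a higher CPM in the cells with dendritic markers than in the other Cd3+ Cd8+ cells, against 34.1% of all genes tested. Of 1029 Crip1 UMIs in fixed draining A, 1008 were in cells with dendritic markers. All 16 tested genes of MHC class I presentation lay above 0 in this comparison, with a median of 0.48 beside 0.02 over all genes and 0 called. With at least 5 cells per library 0 genes were called (269 at an unadjusted p under 0.05), and without the cells with dendritic markers 0 (46).

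For 88 genes, 1.73% of those tested, the difference between draining and non-draining node was not the same after live as after fixed cells, with 29 higher (0.572%) and 59 lower (1.16%) after live cells and 783 at an unadjusted p under 0.05. The lower genes included some of the dendritic marker and antigen presentation lists. Ccl22 was at 0 UMIs in live draining A and C and at 148 in live draining B, and Fscn1 was also called. The antigen presentation genes Tapbp (-2.24 ± 0.54, edgeR adjusted p = 0.02431), Psmb8 (-1.98 ± 0.49, edgeR adjusted p = 0.02861), H2-K1 (-1.41 ± 0.33, edgeR adjusted p = 0.02243), H2-Q7 (-1.93 ± 0.47, edgeR adjusted p = 0.02447) and H2-Q6 (-3.77 ± 0.76, edgeR adjusted p = 0.007578) made 5 of 16 tested in their list, whose median was -1.26 beside -0.16 over all genes. Crip1 and Lsp1 were lower, and the higher genes included Lgals3, Lgals1, Capg and S100a10, so the actin, S100 and annexin list had 4 called higher and 2 lower of 28. Of 80 ribosomal protein genes, 4 were higher (Rpl12, Rpl28, Rps24 and Rps26), with a list median of 0.75. The chemokine receptor Ccr2 was higher by 2.59 ± 0.62 (edgeR adjusted p = 0.02356). Of the 59 lower genes, 57 (96.6%) had a higher CPM in the cells with dendritic markers, and of the 29 higher genes 2 (6.90%), against 34.1% of all tested.

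**Figure D5:**
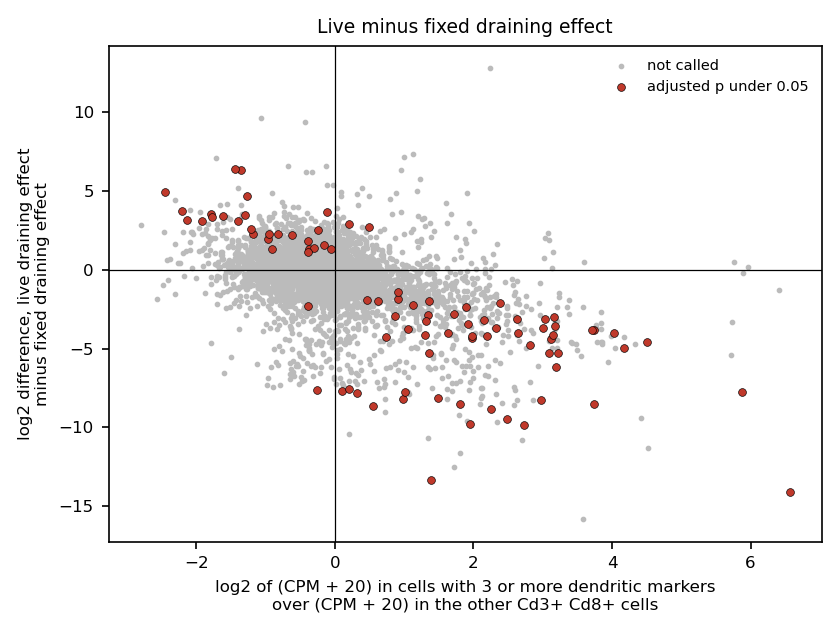
Each point is 1 of the 5073 tested genes, with the log2 ratio of CPM (each plus 20) in cells with dendritic markers over the other Cd3+ Cd8+ cells on the x axis and the log2 difference of the draining effect, live minus fixed, on the y axis; called genes are red. The 59 called lower lie mostly to the right (median ratio 1.98) and the 29 called higher mostly to the left (median -0.96).

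Of these 88 genes, 83 were tested with all 16 libraries, and all 83 kept their sign. These libraries include the ones that gave the 88 calls, live draining A among them. Kept signs and kept calls are therefore no independent check. Of the 83, 10 stayed called, among 13 called in the fit of all 16 libraries (5 higher and 8 lower). They included Gpx1, Hint1, Rpl28, Actn2, Htra2, Icam1, Etv3, Gm2a, Zfp36l1, Adcy6, Cacnb3 and Rab9, named here because they were called. Icam1, an adhesion molecule that T cells bind, stood at 113, 66.9 and 0 CPM in live draining A to C, against 179, 254 and 510 CPM in live non-draining, 284, 312 and 142 CPM in fixed draining and 87.9, 19.1 and 48.7 CPM in fixed non-draining libraries. Live draining was below live non-draining in every library and fixed draining above fixed non-draining. Hint1, a nucleotide-binding hydrolase, did the reverse, at 526, 268 and 634 CPM in live draining and 197, 153 and 188 CPM in live non-draining libraries, against 112, 153 and 239 CPM in fixed draining and 264, 344 and 211 CPM in fixed non-draining ones, which overlap. Without the cells with dendritic markers 0 of 1249 genes were called (72 at an unadjusted p under 0.05).

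Between the draining nodes themselves, 8 genes were higher and 8 lower after live than after fixed cells, together 0.315% of those tested, with 693 at an unadjusted p under 0.05. Each direction was 0.158% of the genes tested. Those higher were Cd7 (3.88), a surface protein of T and natural killer cells, Ly6a (3.38), Lgals3 (2.78), Capg (2.48), Rexo2 (2.26), Gmfg (2.10), Sepp1 (1.98) and Gpx1 (1.77), as log2 changes. Cd7 stood at 501, 184 and 181 CPM in live draining A to C and at 0, 61.2 and 44.8 CPM in fixed draining A to C, so the groups did not overlap. However, 1 cell held 7 of 11 Cd7 UMIs in live draining B and 1 cell held all 4 in live draining C. Of the 40 Cd7 UMIs in live draining A, 23 were in cells with dendritic markers, 16 in those with gamma-delta and natural killer T cell markers and 1 in the remaining cells. Those lower included Relb (-3.37), a factor of dendritic cell maturation, H2-Q6 (-3.01), Arhgap31 (-3.61), Fam49a (-4.24) and Cd74, with Cbfa2t3, Eno3 and Sel1l, which had 0 UMIs in live draining A. Cd74 fell by 2.01 on the log2 scale (edgeR adjusted p = 0.03354), but it read 1002, 15027 and 0 CPM in live draining A to C against 3922, 4927 and 3134 CPM in fixed draining A to C, and its change in the fit of all 16 libraries was 0.52 with an edgeR adjusted p of 0.8641. All 8 lower genes were higher in the cells with dendritic markers. With all 16 libraries 1 gene was called, Etv3, an ETS family repressor, at -2.36 ± 0.42 (log2, SE, edgeR adjusted p = 0.03458). It stood at 87.6, 134 and 45.3 CPM in live draining and at 544, 545 and 418 CPM in fixed draining libraries. The library code largely differed between these 2 groups, and its part cannot be fully told apart from that of the inoculum.

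The last comparisons made no call. Between live non-draining and naive nodes, 0 of 5073 genes passed edgeR's quasi-likelihood test (0.0%), 342 had an unadjusted p under 0.05, and DESeq2 also called 0. The receptor signalling list had 24 of 27 genes above 0 with a median of 0.30. The actin, S100 and annexin list had 26 of 28 below 0 with a median of -0.65. Over all 5073 genes the median was -0.008, with fewer genes above 0 than below. Cells with dendritic markers held 51.1% to 61.6% of the UMIs in live non-draining and 65.9% to 88.1% in naive libraries. Their part in these lists was not tested. S100a4 was at -1.18 ± 0.30 (edgeR adjusted p = 0.2553) and Lck at 0.64 ± 0.24 (edgeR adjusted p = 0.5379). The difference between the live draining effect in Cd3+ Cd8+ cells and that in T cells without Cd8 transcripts passed for 0 of 8731 genes (0.0%) by edgeR's quasi-likelihood test and by limma-voom, with 621 and 573 at an unadjusted p under 0.05. With at least 5 cells per library, where all 3 live draining libraries entered, 0 of 6863 genes were called (406 at an unadjusted p under 0.05), and with at most 50 cells per library 6 of 8285 were called.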

How the data were processed

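The authors prepared 10x Genomics Chromium 3' v3 libraries from PDPN-selected lymph node cells and deposited raw UMI counts per gene and barcode, made with Cell Ranger 3.0.1 on mm10 per the submitters' processing notes. The study's own limits on detected genes (200 to 6000) and mitochondrial UMIs (30%) left 50386 of 68741 barcodes. Cells were chosen by the UMI rule given above. Of 48440 gene identifiers, 40606 matched gencode vM21. No doublet caller was run. The members and gene lists were chosen with earlier results of these data known. All columns of the files belong to the 16 samples.

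UMI counts were summed per library with at least 10 cells and tested with edgeR 4.0.16 in R 4.3.3 (TMM, filterByExpr, robust quasi-likelihood fit over all groups, Benjamini-Hochberg adjustment), without a replicate block. The 10 genes of the rule were not tested. Shares were tested with 2-sided exact permutation tests over libraries (scipy 1.17.1, Python 3.11.15). Where stated, cells were thinned to 1000 UMIs with the seed 1448145. Natural killer cells had at least 2 of 5 markers and no Cd3. CPM in the text use the summed cells' own UMI totals, without TMM. Counting error is not covered by the library tests, and with 5 to 43 cells a library it is large.

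Named genes were the 10 largest rises and falls that were called, whose groups did not overlap and whose average log2 CPM (prior count 2) reached 5, up to 4 per list with the smallest p, and 21 genes of CD8 T cell biology. With 1 live draining library in the fit, absence of overlap selects little. It held for 59.6% of all tested genes between the live nodes and 64.0% between the draining nodes. For the difference of the inocula only the live nodes were checked for overlap. Genes given for detection, kinds of cell or the 16-library calls were chosen after their values were seen. Some named genes are not reported here. On simulated counts for 5073 genes, with 200 changed, the fit recovered 61% of 4-fold and 86% of 16-fold changes between the fixed nodes, with 5.77% of calls on unchanged genes. The alternatives were DESeq2 1.42.0, limma-voom (limma 3.58.1), RLE size factors, no filter, only the groups compared, library code, replicate block, at most 10% mitochondrial UMIs, 2 UMIs each of Cd3 and Cd8, at most 50 cells, 500 UMIs, and each library left out. Added after seeing the data were at least 5 cells per library, cells with fewer than 3 dendritic markers, and the stricter rule for the share of kept cells.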

Additional observations from a re-analysis of the deposited data

Results flagged for a closer look

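Of 72 sets of 4 naive libraries examined for 1 library far from the others, 5 stood out, and chance alone gives about 1 in 20. For Tbx21, Pdcd1 and Il1rl1 the gap was 1.0 of the range, since only 1 naive library had any UMI (2, 5 and 2 UMIs). For 2200002D01Rik the gap was 0.89 of the range (55.1, 54.4, 152 and 43.0 CPM), and for Pvr it was 0.841 (115, 123, 72.6 and 122 CPM).

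Draining minus non-draining differences were unequal after live and fixed inocula for 88 genes by edgeR's quasi-likelihood test, with 1 live draining library in the fit. Among those named, the fitted log2 differences were -14.11 for Ccl22, -13.35 for Rab9, -9.83 for Eno3, -9.77 for Prnp, -9.44 for Anxa4, -8.85 for Col27a1, -8.67 for Sox4, -8.54 for Pvr, -8.50 for Cbfa2t3 and -8.26 for Lad1. All 10 had a group at 0 UMIs in the fit, so these values depend on the prior count and are no bound. Those higher were Smox at 6.37, B3galt2 at 6.36, Actn2 at 4.92, Cd7 at 4.69, St3gal6 at 3.76, Lgals3 at 3.67, Capg at 3.51, Lgals1 at 3.45, Amica1 at 3.41 and Klk8 at 3.36.

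T cells without Cd8 transcripts changed in opposite directions, by -2.61 percentage points of kept cells after live and 0.626 after fixed cells, and the difference between the inocula was not tested.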

How the results depend on the processing

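Numbers of called genes depended on the setting, those of the live draining node resting on 1 library of 15 cells. Live draining against live non-draining gave 13, then 87 without a filter, 119 with only the groups compared, 63 by DESeq2, 3 with the replicate block, and 0 with at least 5 cells per library, with few dendritic markers, or with both. Fixed draining against fixed non-draining gave 8, then 89, 2 and 43 in the first 3 of these, 2 at 10% mitochondrial UMIs, 1 with 2 UMIs each of Cd3 and Cd8, and 0 in the last 3. The difference of the inocula gave 88, then 212 without a filter, 169 by DESeq2, 20 with the block, 13 with at least 5 cells, and 0 with few dendritic markers at either cell number. Live against fixed draining gave 16, then 116, 140 and 85 in the first 3, 3 with library code, 1 with at least 5 cells, and 0 with few dendritic markers at either. Live non-draining against naive gave 0, then 66 without a filter, 7 at 10% mitochondrial UMIs, 26 with 2 UMIs each, 12 with only the groups and 1 with library code. The difference from other T cells gave 0, then 36 without a filter, 6 at 50 cells, and 1 with few dendritic markers and at least 5 cells. The cause was not tested, but settings with fewer genes, cells or libraries say so in their construction.

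Leaving out 1 library gave 3 to 41, 1 to 19, 53 to 153, 7 to 67, 0 to 3 and 0 to 8 calls in the same order. Live against live non-draining fell to 3 and 5 without live non-draining A and C, and rose to 27, 41, 38 and 25 without fixed draining A and C and fixed non-draining B and C. The fixed comparison gave 1 and 19 without fixed draining A and B and 3 without fixed non-draining B. The difference of the inocula gave 53 and 153, and live against fixed draining 7 and 67, without fixed draining A and C; the latter also gave 26, 31 and 26 without live non-draining C and fixed non-draining B and C. Live draining A could not be left out of comparisons that use live draining.

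With 1 library left out, differences of shares kept their direction, at -0.680 to -0.573 and -0.612 to -0.385 points of kept cells, -17.7 to -9.09 and -22.1 to -9.55 points among Cd8 or Cd4 cells, and -20.8 to -9.62 and 10.3 to 17.6 points for Ccl5, live then fixed. Other settings kept the direction, except that Ccl5 after fixed cells was -3.07 points with few dendritic markers, and gave differences down to -0.228 and -0.161 points of kept cells with 2 UMIs each, -4.44 points among Cd8 or Cd4 cells after fixed cells at 10% mitochondrial UMIs, and -1.11 points for Ccl5 after live cells with few dendritic markers. Library letters were not shown to pair samples: correlations of deviations were 0.0446, -0.197 and -0.0894 (live) and 0.163, 0.105 and 0.0266 (fixed), and the block gave 11 calls between the fixed nodes. The block for the draining nodes, the rule without other markers (8 cells), and live draining at 10% mitochondrial UMIs or 2 UMIs each could not be fitted.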
